A study of Mus musculus with 4 samples.

Results

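The extracellular matrix that fibroblasts lay down is represented here by 10 genes: the small leucine-rich proteoglycans Dcn, Lum and Bgn, the matricellular proteins Postn and Sparc, the adhesive glycoprotein Fn1, the microfibril and elastic fibre proteins Fbn1 and Fbln1, and the surface proteins Thy1 and Pdgfra. They were chosen by name as genes of fibroblasts and their matrix, with earlier results of these data known. Each was read from a probe set that the platform annotation assigns to that gene alone, and the probe set with the highest mean was taken where there were several. Of the 10 genes, 9 were measured, out of 22180 genes in all. Fbn1 was not analysed here. The 9 genes came from 10 probe sets, with Bgn the only gene that had a second one.

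Gene expression was measured on arrays, 1 per tumour, in 4 primary tumours of the ALK TH-MYCN mouse model of neuroblastoma, a cancer of the sympathetic lineage. All 4 tumours form a single group. Every animal carried mutant Alk, the TH-MYCN transgene, which directs MYCN to cells that make tyrosine hydroxylase, and a Stat6-/- genotype, on a C57BL\6 x 129Sv/J background; the labels give no age. No tumour with intact Stat6 and no untransformed tissue was analysed here, so the values describe the tumours and the spread between them, with no contrast of conditions and no p-value. Stat6 itself read 5.83, 5.92, 5.75 and 5.80 in tumours 1 to 4, under the background floor defined further on, with no Stat6-intact tumour to set it against. Whether each tumour came from its own animal is not stated, and with 1 array per tumour a difference between tumours carries no replicate error of its own.

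Fibroblasts build a matrix of collagen fibrils around which other proteins are arranged. Decorin, biglycan and lumican, the products of Dcn, Bgn and Lum, are small leucine-rich proteoglycans that bind collagen fibrils and influence how they assemble. Matricellular proteins such as periostin (Postn) and SPARC (Sparc) act less as scaffold than as modulators of how cells attach to and remodel the matrix. Fibronectin (Fn1) is assembled into fibrils through integrins, and fibulin 1 (Fbln1) associates with fibronectin and elastic fibres. Thy1, a glycolipid-anchored surface protein, and Pdgfra, a receptor for platelet-derived growth factors, are widely used to mark fibroblasts. Thy1 is also a surface protein of neurons and of mouse T cells.

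Promoter windows from RefSeq (GRCm38.p6) are shown for 3 genes that were highest in tumour 1 and lowest in tumour 4 in the results that follow, Postn, Sparc and Bgn, and for Fbln1, which was not. Each window is the 250 bases before the annotated start, read 5′ to 3′ on the gene's own strand. Postn lies at chr3:54360857-54361106 on the plus strand (the downstream one of 2 annotated starts), Sparc at chr11:55420081-55420330 on the minus strand, Bgn at chrX:73483351-73483600 on the plus strand and Fbln1 at chr15:85205699-85205948 on the plus strand (the upstream one of 2 starts). Capitals mark a match to any of 6 motifs on either strand.
Postn: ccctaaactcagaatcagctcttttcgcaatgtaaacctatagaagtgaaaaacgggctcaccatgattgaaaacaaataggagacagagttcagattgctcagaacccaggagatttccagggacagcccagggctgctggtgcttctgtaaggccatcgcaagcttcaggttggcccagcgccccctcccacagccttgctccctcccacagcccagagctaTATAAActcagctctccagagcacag
Sparc: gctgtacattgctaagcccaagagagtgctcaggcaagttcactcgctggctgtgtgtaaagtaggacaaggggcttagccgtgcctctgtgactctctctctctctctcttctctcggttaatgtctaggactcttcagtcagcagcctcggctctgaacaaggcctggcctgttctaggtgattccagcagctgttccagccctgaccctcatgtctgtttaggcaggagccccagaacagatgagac
Bgn: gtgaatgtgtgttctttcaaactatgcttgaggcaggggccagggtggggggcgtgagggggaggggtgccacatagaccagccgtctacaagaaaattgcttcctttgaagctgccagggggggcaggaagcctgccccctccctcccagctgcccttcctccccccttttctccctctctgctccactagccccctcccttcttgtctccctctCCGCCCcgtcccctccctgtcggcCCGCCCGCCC
Fbln1: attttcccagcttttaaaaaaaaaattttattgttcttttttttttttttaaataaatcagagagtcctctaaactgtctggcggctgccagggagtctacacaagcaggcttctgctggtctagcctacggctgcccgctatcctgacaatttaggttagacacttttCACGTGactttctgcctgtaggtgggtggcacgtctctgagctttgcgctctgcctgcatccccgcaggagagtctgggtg

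The motifs searched were the TATA box (TATAAA), the CCAAT box (CCAAT), the GC box (GGGCGG), the AP-1 site (TGANTCA), the TEAD site (GGAATG) and the E-box (CACGTG). The Postn window held a TATA box that began 26 bases before the start, a motif present in 12.4% of all 32851 promoter windows of the same length. The Bgn window held 3 GC boxes, 34, 10 and 6 bases before the start, the last 2 of which overlap, and 32.7% of all windows held at least 1. The Fbln1 window held an E-box, the motif bound by MYC family proteins, 81 bases before the start, as did 6.02% of all windows. None of the 6 motifs was found in the Sparc window. No motif was common to the windows of Postn, Sparc and Bgn, and a match or its absence in these letters says nothing of which factor acts there. Of the 10 genes, 6 had a window in the table used, and the remaining windows gave 1 GC box for Fbn1, 1 for the second start of Fbln1 beside the same E-box, and no match for Pdgfra or for the upstream start of Postn.

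Of the 9 measured genes, 7 lay above the background floor, against 40.5% of all 22180 genes. The floor, a log2 value of 6.17, is the 95th percentile of the 4-tumour means of 1394 olfactory and vomeronasal receptor genes, which serve as genes a tumour should not express. Dcn, Bgn, Postn, Sparc, Fn1, Fbln1 and Thy1 passed it, while Lum and Pdgfra did not. A gene under the floor may still be expressed weakly. Because signal depends on the probes, comparisons are made for 1 gene across tumours and never between genes.

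**Figure D1:**
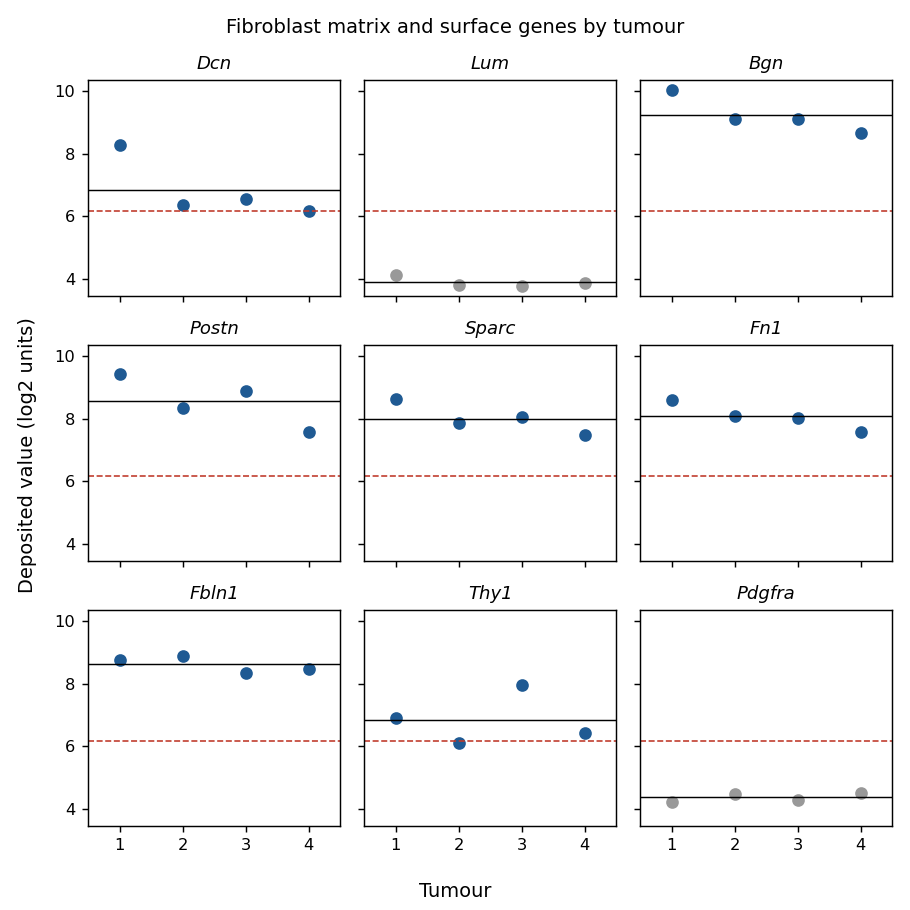
Deposited values (log2 units, vertical axis) of the 9 measured genes in tumours 1 to 4 (horizontal axis), 1 point per tumour, with the 4-tumour mean as a solid line and the background floor of 6.17 as a dashed line; grey points mark genes under the floor. Dcn, Bgn, Postn, Sparc and Fn1 are highest in tumour 1 and lowest in tumour 4, while Lum and Pdgfra stay between 3.76 and 4.51.

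The proteoglycan genes split between a widely varying Dcn, a bright and varying Bgn, and a Lum close to the receptor genes. Dcn measured 8.26 in tumour 1, 6.36 in tumour 2, 6.55 in tumour 3 and 6.17 in tumour 4, all in log2 units (mean 6.84 ± 0.96, SD, n = 4). Tumour 1 stood alone, 3.75-fold above the mean of tumours 2 to 4, while those 3 tumours lay within 0.38 log2 units of each other and close to the floor. The range of Dcn over the tumours, 2.09, exceeded that of 99.7% of all genes above the floor. Without tumour 1 its range was 0.38. The median range among all genes above the floor was 0.41, but that is over all 4 tumours. Leaving a tumour out can only narrow a range, and the median without tumour 1 was not computed.

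Bgn measured 10.05 in tumour 1, 9.11 in tumour 2, 9.10 in tumour 3 and 8.67 in tumour 4 (mean 9.23 ± 0.58, SD, n = 4). The order was that of Dcn at both ends, with tumours 2 and 3 nearly equal, and tumour 1 was 2.60-fold above tumour 4. The second probe set of Bgn was dimmer and read 7.10, 6.81, 6.34 and 6.70 in tumours 1 to 4. It was also highest in tumour 1, but its lowest value was in tumour 3 and its range was 0.75, against 1.38 for the brighter set. The probe sets therefore did not give the same order below tumour 1, and with their mean the range of Bgn was 0.89.

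Lum measured 4.11 in tumour 1, 3.80 in tumour 2, 3.76 in tumour 3 and 3.85 in tumour 4 (mean 3.88 ± 0.16, SD, n = 4). Its mean was below the receptor median of 4.01, and 43.9% of receptor genes had a lower mean. In the RefSeq order of protein-coding genes, Dcn, Lum, Kera (keratocan) and Epyc (epiphycan) are direct neighbours, and of these 4 proteoglycan genes only Dcn was above the floor. Of the wider family of small leucine-rich proteoglycans, 3 of 16 measured genes were above the floor, Dcn, Bgn and Prelp, a proteoglycan that anchors basement membranes to connective tissue. Prelp measured 6.92, 6.10, 6.53 and 6.62 in tumours 1 to 4, so it was highest in tumour 1 too but lowest in tumour 2. Fmod (fibromodulin), Ogn (osteoglycin) and Aspn (asporin) had means of 5.87, 4.75 and 4.44, under the floor, and were named after their values were seen.

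Postn and Sparc had the same extremes. Postn measured 9.44 in tumour 1, 8.33 in tumour 2, 8.88 in tumour 3 and 7.57 in tumour 4 (mean 8.55 ± 0.80, SD, n = 4). Its 4 values were spread out, with no single tumour apart, and tumour 1 was 3.65-fold above tumour 4. Without tumour 1 its range was still 1.31, and tumour 3 was then the highest. Sparc measured 8.62, 7.86, 8.04 and 7.48 in tumours 1 to 4 (SD 0.48, n = 4). It had the same order as Postn, tumour 1 above 3, 3 above 2 and 2 above 4, over a smaller range of 1.14, or 2.21-fold.

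Among the other matricellular genes, 6 of 19 measured were above the floor and 1 of these had a range of at least 1 log2 unit (2-fold). That gene, Smoc1, a calcium-binding relative of SPARC, measured 8.01, 8.52, 8.85 and 7.71 in tumours 1 to 4, so it was lowest in tumour 4 but highest in tumour 3. Spock1, another SPARC relative that carries glycosaminoglycan chains, stayed between 9.89 and 10.29, and Ccn2, connective tissue growth factor, between 6.12 and 6.42. Of these 6 genes, 2 were highest in tumour 1 and 3 lowest in tumour 4, against 46.6% and 38.6% of all genes above the floor. Sparcl1, the closest relative of SPARC, lay under the floor with a mean of 5.93 and was 6.56 in tumour 1, with 5.56 to 6.00 elsewhere, and Smoc2, also under the floor, 6.32 in tumour 1 and at most 5.31 in the others; both were named after their values were seen.

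Fn1 and Fbln1 varied less. Fn1 measured 8.61 in tumour 1, 8.09 in tumour 2, 8.02 in tumour 3 and 7.59 in tumour 4 (mean 8.08 ± 0.42, SD, n = 4). Its range of 1.02 was just over 2-fold, and it was 0.79 once each array's median over genes above the floor was subtracted. The integrin subunit genes Itgb1 and Itgav, whose products take up fibronectin at the cell surface, were above the floor. Itgb1 stayed between 9.03 and 9.30, with tumour 1 highest. Itgav measured 7.06, 6.67, 6.17 and 6.56 in tumours 1 to 4, again with tumour 1 highest but with tumour 3 lowest. Itga5, which pairs with Itgb1 in the main fibronectin receptor, had a mean of 6.04, under the floor; it measured 5.78, 5.49, 7.26 and 5.61 in tumours 1 to 4 and was named after its values were seen.

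Fbln1 measured 8.76 in tumour 1, 8.89 in tumour 2, 8.33 in tumour 3 and 8.49 in tumour 4 (mean 8.62 ± 0.25, SD, n = 4). Its range of 0.56 was under 2-fold, and 72.3% of genes above the floor had a smaller one. It was highest in tumour 2 and lowest in tumour 3, unlike Dcn, Bgn, Postn, Sparc and Fn1. The other fibulin and elastic fibre genes above the floor were 4 of 17 measured, and none of them had a range of 1. Fbln2, a fibulin of basement membranes and elastic fibres, measured 6.76, 6.01, 6.54 and 6.12 in tumours 1 to 4. Mfap2, a microfibril protein, was nearly constant between 8.63 and 8.76.

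The surface markers did not follow the matrix genes. Thy1 measured 6.92 in tumour 1, 6.12 in tumour 2, 7.95 in tumour 3 and 6.41 in tumour 4 (mean 6.85 ± 0.80, SD, n = 4). Its range of 1.83 was close to that of Postn, but tumour 3 was highest and tumour 2, where it lay under the floor, lowest. Without tumour 3 its range was 0.80. Of the T and NK cell markers, 0 of 10 measured were above the floor, with means from 4.02 to 5.13. Of the sympathoadrenal tumour cell markers, which mark neuron-like cells, 12 of 12 were above the floor. Their median deviation in tumour 3, where Thy1 was highest, was -0.08, against -0.09 for all genes above the floor. Which cells gave the Thy1 signal was not tested.

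Pdgfra measured 4.20 in tumour 1, 4.48 in tumour 2, 4.28 in tumour 3 and 4.51 in tumour 4 (mean 4.37 ± 0.15, SD, n = 4). It was under the floor in every tumour, 63.8% of receptor genes had a lower mean, and tumour 1, where the matrix genes were highest, had its lowest value. Pdgfrb, the related receptor of pericytes and fibroblasts, had a mean of 6.21, just above the floor, and measured 6.29, 6.26, 6.34 and 5.96 in tumours 1 to 4, the last of these under the floor. Its ligand gene Pdgfb was under the floor. Pdgfa, which encodes a ligand of the Pdgfra product, measured 6.87, 6.40, 6.80 and 6.87. Pdpn, podoplanin, a membrane glycoprotein of fibroblasts and lymphatic endothelium, measured 8.04, 7.10, 7.49 and 8.24, so it was highest in tumour 4.

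**Figure D2:**
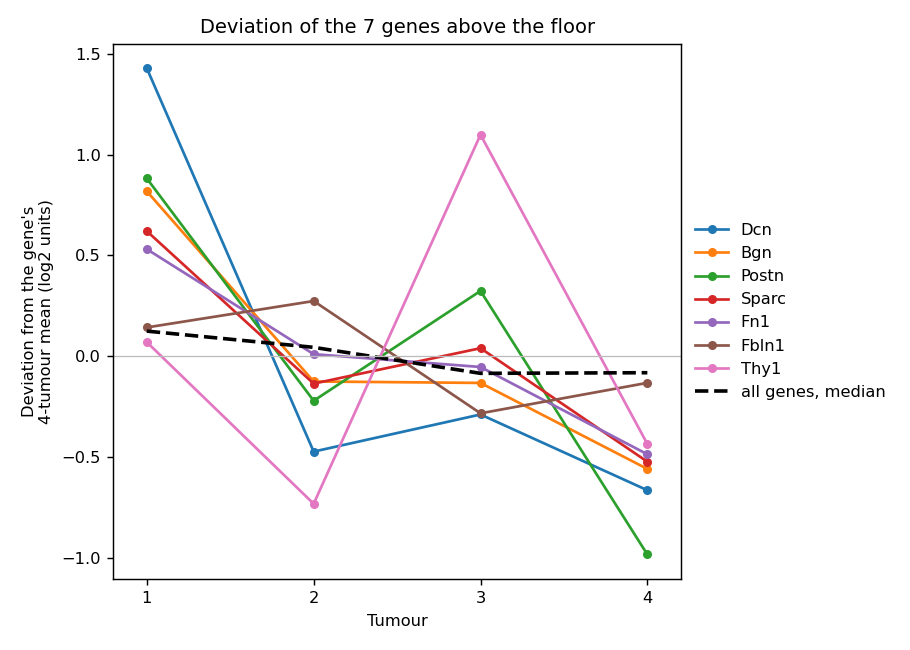
Deviation of each of the 7 genes above the floor from its own 4-tumour mean (log2 units, vertical axis) in tumours 1 to 4 (horizontal axis); lines only join the points of 1 gene, and the dashed line is the median over all genes above the floor. All 7 genes are above their own mean in tumour 1 and below it in tumour 4, with Dcn farthest up in tumour 1 (1.43), Postn farthest down in tumour 4 (-0.98) and Thy1 apart in tumour 3 (1.10).

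Each gene's value was next set against its own 4-tumour mean. The median deviation over the 7 genes was 0.62 in tumour 1, -0.14 in tumour 2, -0.05 in tumour 3 and -0.52 in tumour 4 (SD over the genes 0.47, 0.33, 0.49 and 0.26). The same medians over all 8989 genes above the floor were 0.12, 0.04, -0.09 and -0.08. In tumours 1 and 4 the arrays as a whole were offset in the same direction by a smaller amount, which was not so in tumours 2 and 3. Relative to those medians the genes stood at 0.50, -0.18, 0.03 and -0.44. Tumour 1 was above the all-gene median in 6 of 7 genes, the exception being Thy1, and tumour 4 below it in 7 of 7.

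Of the 7 genes, 5 were highest in tumour 1 and 5 were lowest in tumour 4, where 46.6% and 38.6% of all genes above the floor were so. The same 5 genes, Dcn, Bgn, Postn, Sparc and Fn1, made up both counts, and 20.6% of all genes had this pair of extremes. With the array medians subtracted, the 5 genes kept both extremes, and the share of all genes was 6.7%. Tumour 1 was at least 2-fold above tumour 4 in the same 5 of 7 genes as deposited, against 1.19% of all genes. With array medians subtracted, this held in 3 of 7 (Dcn, Bgn and Postn), against 0.523% of all genes. The genes are not replicates of each other, and these counts describe 4 arrays. Over all 9 measured genes with no floor, 6 were highest in tumour 1, with Lum as the sixth, against 27.9% of all 22180 genes. In a tumour extract, fewer fibroblasts, less matrix RNA per fibroblast and less matrix RNA in other cells, tumour cells included, cannot be told apart.

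A range of at least 2-fold over the tumours was seen in 6 of the 7 genes, all but Fbln1, against 4.26% of all genes above the floor. This count rests on tumours 1 and 4: it was 2 without tumour 1 (Postn and Thy1), 3 without tumour 4 (Dcn, Postn and Thy1), and 4 with array medians subtracted (4.43% of all genes), where Sparc (0.92) and Fn1 (0.79) no longer reached it. Leaving a tumour out can only narrow the range of any gene, and the share of all genes was not computed for it. Tumour 4 is also the only one with high Xist, 10.13 against 3.89 to 3.95 in the others, and with the Y-linked Eif2s3y near background, 3.90 against 7.47 to 7.89. Its differences from the other tumours therefore cannot be told apart from the animal's sex. Bgn lies on the X chromosome, and its brighter probe set was lowest in tumour 4. The second probe set was lowest in tumour 3, at 6.34 against 6.70 in tumour 4. A link to sex was not tested.

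**Figure D3:**
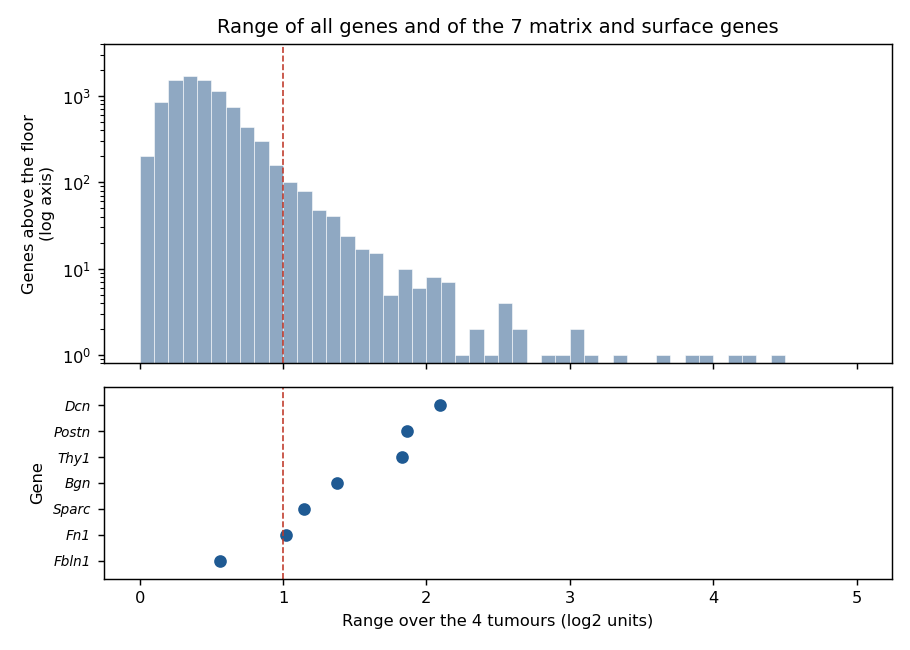
Upper panel, number of genes above the floor (log axis) by their range over the 4 tumours (log2 units, horizontal axis); lower panel, the ranges of the 7 matrix and surface genes on the same horizontal axis, with the 2-fold mark dashed in both. Fbln1 (0.56) lies among the bulk of genes and Dcn (2.09), Postn (1.87) and Thy1 (1.83) lie in the tail.

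The genes were also compared with each other by the root mean square difference between their deviations in the 4 tumours, in log2 units, where a small value means a like pattern. Sparc and Fn1 were closest, at 0.10, followed by Bgn and Sparc at 0.13 and Bgn and Fn1 at 0.17. Postn was 0.30 from Sparc, and Dcn, whose deviation in tumour 1 was larger, was 0.36 from Bgn. The widest differences were between Dcn and Thy1, at 0.99, and between Fbln1 and Thy1, at 0.87. Thy1 was at least 0.67 from every one of the other 6 genes.

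Outside the chosen genes, the 5 genes above the floor with the closest pattern to the mean deviations of the 7 (0.64, -0.20, 0.10 and -0.54 in tumours 1 to 4) were Col1a2, Timp1, Nxf3, Tgfb3 and Scarna10, at differences from 0.06 to 0.11 over the 4 tumours. Col1a2, a chain of type I collagen, measured 7.41, 6.60, 6.94 and 6.38 in tumours 1 to 4. Timp1, an inhibitor of matrix metalloproteinases, measured 6.86, 6.14, 6.29 and 5.87, and Tgfb3, a growth factor that induces matrix genes, 7.84, 7.06, 7.45 and 6.92. Nxf3, of the nuclear RNA export factor family, and Scarna10, a small Cajal body RNA, are not matrix genes. All 5 were highest in tumour 1 and lowest in tumour 4, which follows from their selection by closeness to a profile with those extremes.

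The genes closest to Dcn alone were Sorcs1, Serping1, Prph, Serpina3n and Col8a1, at differences from 0.14 to 0.34. Serping1, the inhibitor of complement component C1, measured 7.64, 6.22, 6.37 and 6.06 in tumours 1 to 4. Col8a1, a short-chain collagen, measured 7.62, 6.50, 6.72 and 6.27. Prph encodes peripherin, a neuronal intermediate filament, and Sorcs1 a neuronal sorting receptor, so a pattern like that of Dcn was found in genes of other cell types as well.

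The collagen genes above the floor shared the high end, tumour 1, while the low end varied. Apart from Dcn, the fibroblast markers above the floor are themselves among these collagens, so they are no separate group. Of 10 fibrillar and associated collagen genes, 5 were above the floor, all 5 were highest in tumour 1, 2 were lowest in tumour 4 and 2 had a range of 1. The shares of all genes above the floor were 46.6%, 38.6% and 4.26%. Their median deviations were 0.44, -0.23, 0.09 and -0.24 in tumours 1 to 4. Col1a1, the other type I chain, measured 8.43, 7.32, 7.91 and 7.32, with tumours 2 and 4 equally low, and Col3a1, type III collagen, 7.12, 6.40, 6.77 and 6.45. Col6a2, a type VI chain, stayed between 6.30 and 6.58.

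Among 14 fibroblast markers, which include Dcn, Lum and Pdgfra, 4 were above the floor (Dcn, Col1a1, Col1a2 and Col3a1). Without a floor, 11 of the 14 were highest in tumour 1, again against 27.9% of all genes, and Pdgfra, Tcf21 and Twist2 were the 3 that were not. Dpt (dermatopontin) and Mfap5, both matrix proteins of fibroblasts and both under the floor on average, measured 6.63 and 6.73 in tumour 1 and at most 5.81 and 5.90 in the other tumours; they were named after their values were seen. Fap, an activated fibroblast protease, and Pdgfra stayed under the floor in all 4 tumours.

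**Figure D4:**
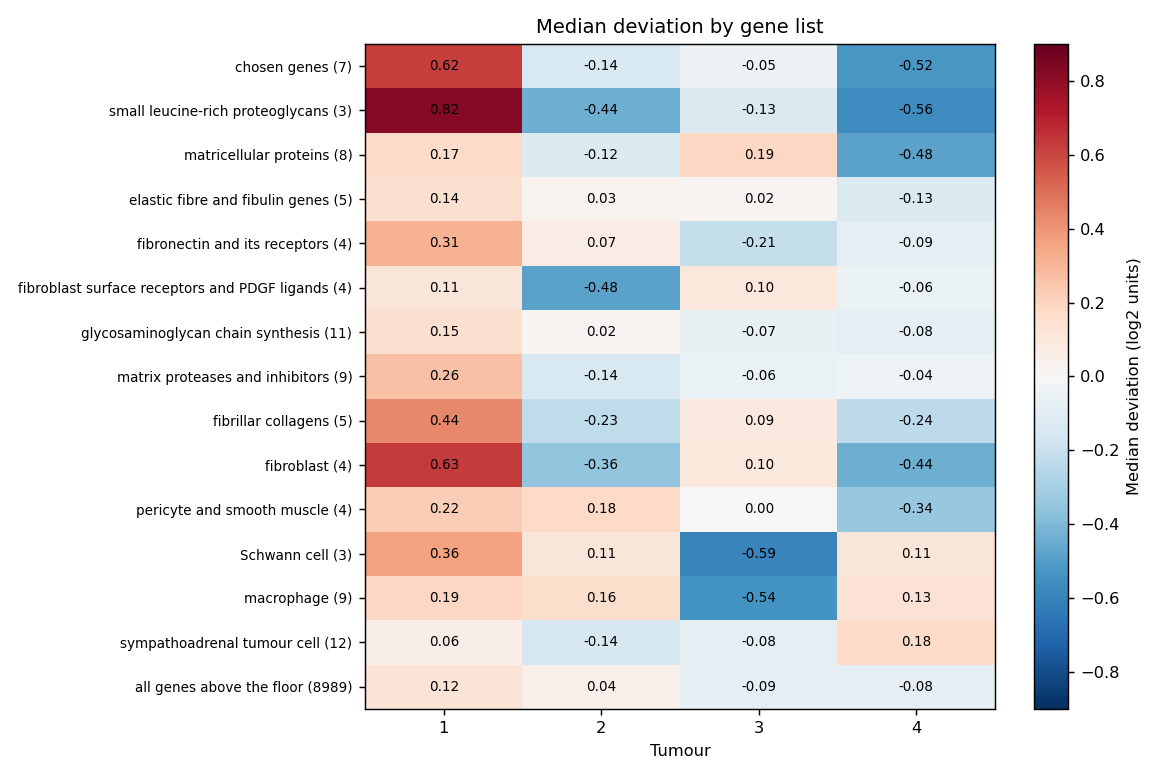
Median deviation from each gene's 4-tumour mean (log2 units, colour and printed value) in tumours 1 to 4 (horizontal axis) for the chosen genes (top row), for each gene list with at least 3 genes above the floor, and for all genes above the floor (bottom row); the number of genes is in brackets, and some lists share genes with the top row. The chosen genes (0.62) and the fibroblast markers (0.63) are high in tumour 1 and low in tumour 4, while macrophage and Schwann cell markers are lowest in tumour 3.

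The genes that make, cut or protect the matrix were flatter than the chosen genes. Of the enzymes that build glycosaminoglycan chains on proteoglycans, 11 of 18 measured were above the floor, 0 had a range of 1, and their median deviations (0.15, 0.02, -0.07 and -0.08) were close to those of all genes. Xylt1, which starts the chain on the core protein, measured 7.35, 7.90, 7.50 and 7.71 in tumours 1 to 4, so it was lowest where Dcn and Bgn were highest. Of the matrix proteases and their inhibitors, 9 of 17 were above the floor, 0 had a range of 1 and 6 were highest in tumour 1, against 46.6% of all genes above the floor. The median range of the 9 was 0.54, against 0.41 for all genes above the floor. Timp1 had the widest, at 0.99, just under the mark. Timp3, an inhibitor held in the matrix, measured 7.20, 6.44, 6.27 and 6.26, and Mmp2, gelatinase A, 7.64, 7.05, 7.20 and 7.77 in tumours 1 to 4, so Mmp2 was highest in tumour 4. Of 14 large and basement membrane proteoglycan genes, 2 were above the floor, and both are expressed in neural tissue. Ncan (neurocan) measured 8.81, 8.40, 8.04 and 8.55 and Agrn (agrin) 8.14, 7.44, 7.94 and 8.19. Hspg2, named after its values were seen, fell just short, with a mean of 6.1655 against a floor of 6.1660. It measured 6.43, 6.14, 6.05 and 6.04 in tumours 1 to 4, so it was highest in tumour 1 and lowest in tumour 4.

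Markers of other cell types were read in the same tumours. The pericyte and smooth muscle list had 4 of 13 genes above the floor, and their deviations had medians of 0.22, 0.18, 0.00 and -0.34 across tumours 1 to 4. Rgs5, a pericyte marker, measured 8.99, 9.30, 8.53 and 8.21 and Acta2, smooth muscle actin, 7.92, 8.02, 7.60 and 7.28, so both were low in tumour 4 like the matrix genes but highest in tumour 2. Mcam, from the same list, measured 8.77, 8.20, 8.60 and 8.47, so it was highest in tumour 1 and lowest in tumour 2. Of the 4 genes, 1 was highest in tumour 1 and 3 were lowest in tumour 4, against 46.6% and 38.6% of all genes above the floor. Over all 13 genes the mean level ran from 5.97 in tumour 4 to 6.08 in tumour 2. The Schwann cell list had 3 of 9 above the floor, all highest in tumour 1, against 46.6% of all genes above the floor. Their median deviations were 0.36, 0.11, -0.59 and 0.11 in tumours 1 to 4. Pmp22 was lowest in tumour 4 (7.90, 7.31, 7.69 and 7.24), while Fabp7 and Gfra3 were lowest in tumour 3. Fabp7, a glial fatty acid carrier, measured 9.54, 8.49, 6.49 and 8.32, while Sox10, the defining transcription factor of that lineage, was under the floor in every tumour. The mean level of the 9 genes was 6.71 in tumour 1 and 6.09 to 6.35 in the others. Macrophage markers, 9 of 13 above the floor, were lowest in tumour 3 (-0.54), and their mean level was 7.21 in tumour 1 and 7.19 in tumour 4. The part of pericytes and Schwann cells in the matrix values was not tested.

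The labels give a neck muscle as the tissue. None of 13 skeletal muscle markers was above the floor, with means from 3.63 to 5.86, and the same was true of 9 cartilage and bone markers (4.04 to 6.16), 6 tendon markers (3.69 to 5.87) and 7 adrenal cortex markers (3.16 to 5.10). Of 12 endothelial markers, 2 were above the floor, Cdh5 and Egfl7. With no floor, 0 of 12 were highest in tumour 1, against 27.9% of all 22180 genes. For the 12 sympathoadrenal markers the medians were 0.06, -0.14, -0.08 and 0.18, with tumour 4 highest by that measure. Their mean level was 9.78, 9.48, 9.57 and 9.71 in tumours 1 to 4, with tumour 1 highest, so the measures gave different orders. Th, tyrosine hydroxylase, measured 11.75, 11.69, 12.01 and 12.05, while Prph measured 9.32, 8.06, 8.18 and 7.51 and, like the matrix genes, was lowest in tumour 4.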

How the data were processed

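Total RNA was extracted with Trizol and hybridised to Affymetrix arrays after cDNA synthesis and biotin labelling, per the labels' protocols. The authors deposited 1 log2 value per probe set and tumour; the submitters' processing notes name RMA and Partek, and no version or setting was found for either in the labels used. The log base is taken from the values, which run from 2.47 to 13.6. Array medians were between 5.15 and 5.29, and no pair of arrays shared over 0.22% of its values.

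Of 41345 probe sets, 25335 were in the platform annotation, 23521 of them with 1 gene. Symbols were updated by Entrez identifier (23328 matched) with the RefSeq table of GRCm38.p6. Python 3.11.15 with pandas 2.3.3 gave the mean, SD (n = 4), range and deviations. The calculation was tested on simulated data. The number of arrays limits the precision.

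All members, 9 pathway lists and 14 marker lists were chosen with earlier results of these data known. Named genes were all members, up to 3 widest and 2 narrowest genes above the floor per list, and the 5 nearest genes to the members and to Dcn. Tumour numbers follow the labels' order and pair nothing. Alternatives were other floors, mean of probe sets, quantile normalization, subtraction of array medians, and leaving out each tumour.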

Additional observations from a re-analysis of the deposited data

Results flagged for a closer look

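For each gene named, the distance between the extreme tumour and the next one was divided by the range over the 4 tumours (Dixon's ratio). Of 88 genes or probe sets examined, 7 passed the critical value at the 95% level, and chance alone passes about 1 in 20. Genes named after their values were seen are among the 88, apart from Hspg2, whose ratio was 0.758. Sorcs1 (0.958) read 8.42 in tumour 1, with 6.45 to 6.53 elsewhere. Smoc2 (0.981), named after its values were seen, read 6.32 in tumour 1, with at most 5.31 elsewhere. Pdgfa (0.847) read 6.40 in tumour 2, with 6.80 to 6.87 elsewhere. Itga5 (0.836), also named after its values were seen, read 7.26 in tumour 3, with 5.49 to 5.78 elsewhere. Chst11 (0.839), a chondroitin sulphotransferase, read 6.59 in tumour 4 and up to 7.08 elsewhere. Xist (0.991) and Eif2s3y (0.896) set tumour 4 apart. Dcn, at 0.820, did not pass.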

How the results depend on the processing

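No paired analysis was possible because all 4 tumours form 1 group. Leaving out each tumour in turn gave 7 genes above the floor every time, 2 to 6 genes with a range of at least 1, and 5 to 6 genes highest in tumour 1. The median deviation ran from 0.45 to 0.63 in tumour 1, -0.31 to 0.07 in tumour 2, -0.22 to 0.19 in tumour 3 and -0.60 to -0.31 in tumour 4. The sign in tumour 2 turned only without tumour 1 (0.0726). Each gene's mean is then taken over the remaining tumours, so losing a high tumour 1 raises the deviations of the others. The sign in tumour 3 turned there too (0.187), with array medians subtracted (0.0294) and with the mean over genes (0.10). That mean includes Thy1, at 1.10 in tumour 3. Tumour 3 therefore has no settled direction, and that of tumour 2 depends on whether tumour 1 is in the mean. Why the tumours differ was not tested. The count of genes above the floor was 5 under a 99th percentile floor and 8 under a floor at the receptor median. The count with a range of at least 1 was 4 with the 99th percentile floor, 4 after a further quantile normalization and 5 with the mean of probe sets. No share of all genes was computed under these settings, under the receptor median floor or with a tumour left out. The counts for those settings therefore describe the chosen genes without a background to set them against. The direction in tumours 1 and 4 held under all alternatives run. Depth is not a quantity of arrays; Lum and Pdgfra, near the receptor genes, are limited by background.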

Other observations

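Itga5, outside the chosen genes, had the order of tumours of Thy1, with tumour 3 highest, tumour 1 next, then tumour 4 and tumour 2 (7.26, 5.78, 5.61 and 5.49 for Itga5, and 7.95, 6.92, 6.41 and 6.12 for Thy1). Itga5 was on average under the floor, and this likeness was noticed after the values were seen. Col6a3, a type VI collagen chain also under the floor on average, had the reverse of the type I collagen order at its ends, with 6.56 in tumour 4 and 5.54 in tumour 1.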
